A study of Mus musculus with 30 samples.

Results

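The genes described here are the corticosteroid receptors, the enzyme that regenerates their ligand and a set of genes that respond to glucocorticoids, followed in the hypothalamus of newborn female mice during the day after an injection. The 10 members were Nr3c1, Nr3c2, Hsd11b1, Fkbp5, Sgk1, Tsc22d3, Ddit4, Cdkn1a, Mt1 and Mt2. They were found on the array as all probe sets that the platform annotation assigns to one of these symbols, which gave 22 probe sets for 10 of the 18193 genes on the array. Of these 22, 16 passed the filter on low signal, at least 1 for each gene, and 6 did not: 3 of Nr3c1 and 1 each of Fkbp5, Tsc22d3 and Mt1.

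C57BL/6J females received, on the day of birth at about 1.4 g body weight, either 7.5 μg of estradiol benzoate (EB, a slowly released estrogen ester) under the skin in 20 μl of peanut oil or the same oil without it. The whole hypothalamus was taken 1, 3, 6, 12 or 24 h later, and each of the 10 groups of treatment and time holds 3 mice with 1 Affymetrix mouse genome array each, 30 arrays in all. Every mouse was injected, so time after injection, age of the pup, clock time and recovery from handling cannot be told apart. The litters are not stated, and the p-values measure the spread between individual mice. The arrays measure RNA of a whole tissue, in which fewer cells of a type and less RNA per cell cannot be told apart.

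Cortisol and corticosterone enter cells and bind the glucocorticoid receptor, encoded by Nr3c1, or the mineralocorticoid receptor, encoded by Nr3c2, which has the higher affinity for corticosterone and is part-occupied even at rest. The bound receptor leaves its chaperones, moves to the nucleus and binds palindromic DNA elements near genes such as Fkbp5, Sgk1 and Tsc22d3. In the hypothalamus this closes the feedback loop on Crh, and rodents pass after birth through a period in which the adrenal response to mild stress is low.

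Reference promoters of 3 members are shown. Mt2 and Mt1 are neighbouring genes whose printed stretches hold unequal numbers of matches to a metal response element pattern. Sgk1 is the member whose window holds a full glucocorticoid response element palindrome. The stretches are the 250 bases before an annotated gene start, from RefSeq (build GRCm38.p6, plus strand). Capitals in Mt2 and Mt1 mark matches on either strand to TGCNCNC, the pattern searched for the core of the metal response element. Any base was accepted at each N, so a match need not be a working element. In Sgk1 capitals mark the glucocorticoid response element palindrome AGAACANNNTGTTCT. Mt2 lies at chr8:94172368-94172617, Mt1 at chr8:94178839-94179088, and the Sgk1 stretch, 1 of 6 annotated starts, at chr10:21993640-21993889.
Mt2: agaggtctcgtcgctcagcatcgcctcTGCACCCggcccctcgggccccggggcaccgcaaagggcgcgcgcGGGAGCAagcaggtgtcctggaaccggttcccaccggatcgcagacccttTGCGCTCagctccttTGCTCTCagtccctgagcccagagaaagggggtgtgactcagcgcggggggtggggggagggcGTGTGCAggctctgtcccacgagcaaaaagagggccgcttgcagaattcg
Mt1: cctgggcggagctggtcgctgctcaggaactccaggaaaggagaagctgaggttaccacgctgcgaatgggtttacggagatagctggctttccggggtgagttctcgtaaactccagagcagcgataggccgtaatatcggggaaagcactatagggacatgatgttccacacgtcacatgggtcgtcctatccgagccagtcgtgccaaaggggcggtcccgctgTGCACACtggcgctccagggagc
Sgk1: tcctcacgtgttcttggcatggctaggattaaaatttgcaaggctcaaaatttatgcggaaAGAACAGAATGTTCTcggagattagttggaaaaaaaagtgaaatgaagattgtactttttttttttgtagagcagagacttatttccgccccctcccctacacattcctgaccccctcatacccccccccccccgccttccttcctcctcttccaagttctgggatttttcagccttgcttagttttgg
The Mt2 stretch holds 5 matches to TGCNCNC and the Mt1 stretch 1. These counts depend on where the annotated start lies, and bases outside the stretches were not searched. The pattern is common among the members too, in 9 of their 17 windows and 8 of the 9 genes with a window, with 2 in Ddit4. Of all 32851 stretches of this length, 44.4% hold at least 1 such match and 1.28% hold 4 or more. The full palindrome is in 3 of the 32851 (0.00913%), the Sgk1 stretch among them. Promoter windows were matched for 9 of the 10 members (17 windows), Nr3c1 being the other one. These matches are letters in a reference window, and binding was not measured here.

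Signals are given in scaled MAS5 units, the deposited intensity of a probe set after each array was brought to one median of 41.3. The deposited medians reached 66.9 and were highest in both 12 h groups (52.9 to 66.9). Without scaling the median probe set therefore stood 0.81 higher at 12 h than at 1 h in oil and 0.72 higher in EB (log2), and every change below is relative to that shift. Other unscaled shifts of the median were between -0.27 (EB at 3 h) and 0.04 against 1 h, and -0.20 at 3 h and 0.22 at 24 h for EB minus oil. Where a gene had several probe sets they are called the first, the second and so on in the order of their mean signal, which is a name only, since probe sets bind with different strength and their signals are not compared. Differences are log2 fold changes from limma fitted to all 30 arrays, with p-values adjusted over the 27022 probe sets kept and a threshold of 0.05. Of 11 hypothalamic markers on the array, 10 passed the filter, among them Pmch and Hcrt, while 0 of 5 pituitary and 0 of 3 erythroid markers did. That filter is on the mean over arrays. The pituitary marker Cga had a median of 2.63 and reached 166. The summed pituitary signal reached 141.5 in oil at 12 h, and 130.9, 207 and 230.8 in EB at 3, 12 and 24 h. In other groups it reached at most 51.98. Its part in the values below was not tested. All 12 listed markers of the leptomeninges, the membranes that cover the brain, passed, and their summed signal was 398.6 to 1951 in the EB 24 h arrays against 3051 to 9259 in the 27 others.

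Over time after oil, 10 of the 16 member probe sets changed (moderated F test), those of Nr3c1 (3), Nr3c2, Fkbp5, Tsc22d3 (2), Ddit4 and Cdkn1a (2), beside 34.1% of all probe sets tested. After EB, 8 changed, those of Nr3c1 (2), Fkbp5, Sgk1, Tsc22d3, Ddit4, Cdkn1a and Mt1, beside 22.8%. Altogether 13 probe sets of 8 genes changed in one treatment or the other, beside 41.9% of all, and 5 in both, beside 15%. Hsd11b1 and Mt2 passed in neither. Without the 12 h arrays, a comparison added after the data were seen, 2 passed in oil, both of Nr3c1, beside 15% of all, and 6 passed in EB, beside 12.4%.

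Nr3c1, the glucocorticoid receptor, rose after injection in both treatments. In oil, its first probe set read 147, 155 and 159 at 1 h, 139, 175 and 133 at 3 h, 223, 202 and 219 at 6 h, 197, 252 and 234 at 12 h and 190, 205 and 197 at 24 h. In EB it read 160, 159 and 181 at 1 h, 144, 170 and 174 at 3 h, 198, 185 and 180 at 6 h, 266, 226 and 201 at 12 h and 215, 209 and 187 at 24 h. In oil all 9 arrays from 6 h on lay above all 6 earlier ones, and in EB only 180 at 6 h fell below the highest early value of 181. Against 1 h the difference in oil was 0.48 at 6 h (standard error 0.11, adjusted p = 0.0052; 0.37 and 0.27 without scaling) and 0.56 at 12 h (adjusted p = 0.00047). In EB it was 0.47 at 12 h (adjusted p = 0.0059), and without EB 12 h replicate 1 that call was lost (0.36, adjusted p = 0.063).

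The second Nr3c1 probe set also rose in both treatments, and stayed high to 24 h. In oil it read 119, 127 and 121 at 1 h, 132, 118 and 106 at 3 h, 160, 153 and 202 at 6 h, 139, 171 and 166 at 12 h and 181, 165 and 161 at 24 h. With EB the values were 116, 118 and 122 at 1 h, 134, 139 and 148 at 3 h, 159, 146 and 129 at 6 h, 182, 170 and 171 at 12 h and 187, 182 and 191 at 24 h. At 24 h the 3 EB arrays lay above all 12 EB arrays of earlier times but 1, the 12 h array at 182, and were 1.57-fold over 1 h (log2 0.65, standard error 0.11, adjusted p = 0.00032). In oil the 24 h difference was 0.46 (adjusted p = 0.010), which without scaling was 0.16 (adjusted p = 0.51) and without oil 24 h replicate 1 had an adjusted p of 0.058. The third ran from 47.4 to 136 and rose in oil at 12 h by 0.79 (standard error 0.21, adjusted p = 0.0060). Over the 30 arrays the first and the second correlated with r = 0.79, and with r = 0.44 once the group means were taken out, values that share the same libraries. The remaining 3 Nr3c1 probe sets read between 1 and 21.7 and were not tested.

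Nr3c2, the mineralocorticoid receptor, read low, near the filter, and changed over time in oil (adjusted p = 0.049) and not past the threshold in EB (adjusted p = 0.076). In oil it read 24.4, 21.3 and 23.3 at 1 h, 19.4, 31.6 and 17.7 at 3 h, 40.1, 33.6 and 33.2 at 6 h, 26.5, 36.7 and 27.6 at 12 h and 34.5, 38.4 and 33.3 at 24 h. The EB arrays read 21.3, 25.8 and 31.2 at 1 h, 40.7, 36.6 and 41.5 at 3 h, 40.1, 37.0 and 39.7 at 6 h, 38.4, 36.3 and 36.1 at 12 h and 33.8, 33.1 and 15.3 at 24 h. The 9 EB arrays from 3 h to 12 h lay between 36.1 and 41.5, above all EB arrays at 1 h and 24 h. No single time passed against 1 h in either treatment, the nearest being 0.63 in oil at 6 h (standard error 0.24, adjusted p = 0.078). The oil call is at the threshold, with adjusted p between 0.013 and 0.11 over single left-out arrays, and 24 of the 30 omissions ended it.

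Hsd11b1, the reductase that regenerates active corticosterone inside cells, was also near the filter, from 15.0 to 60.2. Its 3 EB 12 h arrays read 49.1, 60.2 and 39.7 and its 3 EB 1 h arrays 15.0, 35.9 and 32.3, which do not overlap. The difference was 0.92 (standard error 0.32), with an adjusted p just over the threshold of 0.05. In oil the 24 h arrays read 41.2, 49.5 and 50.7 against 26.5, 34.2 and 30.9 at 1 h, a difference of 0.63 with an adjusted p of 0.25. Over all times neither treatment passed (adjusted p = 0.17 in oil and 0.073 in EB).

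**Figure D1:**
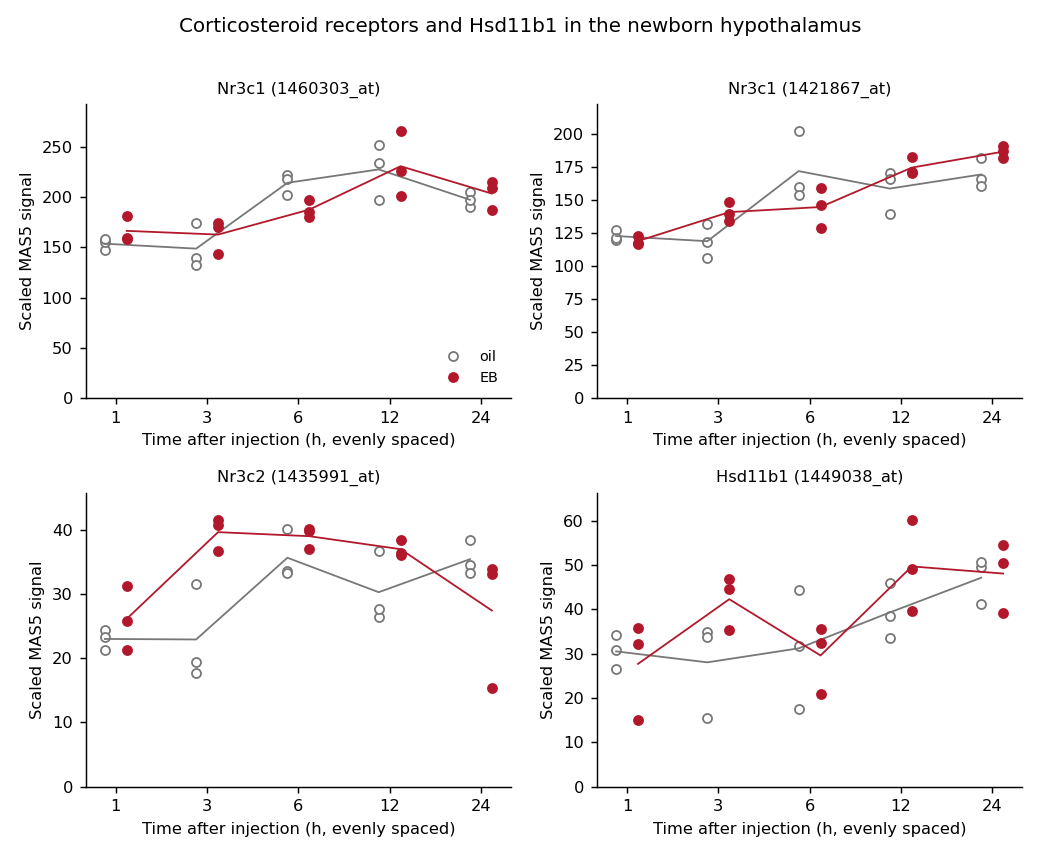
Scaled MAS5 signal (y axis, from 0) of 2 probe sets of Nr3c1 and of Nr3c2 and Hsd11b1 against time after injection (x axis, h, evenly spaced), with open circles for oil arrays, filled circles for EB arrays and lines through the means of 3. The panel titles give the Affymetrix probe set names, the first Nr3c1 probe set in the first panel: it lies at 133 to 181 at 1 and 3 h and at 180 to 266 from 6 h on, and the 3 EB arrays of Nr3c2 at 3 h lie above the 3 oil arrays.

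Fkbp5 encodes a co-chaperone that lowers the receptor's affinity for hormone and is itself induced by it. Its first probe set read 391, 458 and 369 in oil at 1 h and stayed between 344 and 516 to 24 h, with no change over time in oil past the threshold (adjusted p = 0.65). With EB it read 410, 386 and 412 at 1 h, 487, 484 and 448 at 3 h, 400, 414 and 473 at 6 h, 385, 394 and 525 at 12 h and 343, 319 and 269 at 24 h. The 3 EB arrays at 24 h were the lowest of the 30, and the change over time in EB passed (adjusted p = 0.0085). The 24 h difference from 1 h in EB was -0.38 (standard error 0.13, adjusted p = 0.058), which does not pass on its own. Without EB 24 h replicate 3, the lowest array, the change over time in EB had an adjusted p of 0.071, and without all 3 EB 24 h arrays one of 0.53. Among those arrays replicate 3 had the highest leptomeningeal summed signal, 1951 against 398.6 and 484.3, and the lowest Fkbp5. Fkbp5 and the leptomeningeal list correlated with r = 0.42 over all 30 arrays and r = -0.098 over the 27 without EB 24 h, each point being 1 library, and the part of the leptomeningeal signal in the Fkbp5 change was not tested.

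The second probe set of Fkbp5 read from 15.1 to 57.7, near the filter, and changed over time in oil (adjusted p = 0.022) and not past the threshold in EB (adjusted p = 0.50). It did not follow the first (r = -0.18 over 30 arrays), and the transcripts that each detects were not resolved. The third lay between 1 and 11.5 and was not tested. The oil call was lost without oil 12 h replicate 3 (adjusted p = 0.086) or oil 3 h replicate 1 (0.061) and without scaling (0.079).

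Sgk1, a kinase that glucocorticoid and mineralocorticoid receptors both induce and whose promoter stretch with the palindrome is printed above, ranged from 171 to 377. In oil it read 376, 298 and 317 at 1 h, 235, 310 and 325 at 3 h, 260, 319 and 286 at 6 h, 235, 215 and 262 at 12 h and 311, 211 and 199 at 24 h. The EB arrays read 293, 292 and 252 at 1 h, 246, 377 and 348 at 3 h, 234, 231 and 171 at 6 h, 285, 248 and 376 at 12 h and 220, 221 and 217 at 24 h. In EB the 3 arrays at 6 h and the 3 at 24 h lay below all 9 of the other times, and the change over time passed (adjusted p = 0.022; 0.058 without EB 6 h replicate 3). That call was also lost without the EB 24 h arrays (adjusted p = 0.062) and with array weights (0.066). Sgk1 and the leptomeningeal list correlated with r = 0.38 over 30 arrays and 0.30 over the 27 without EB 24 h. The part of the leptomeningeal signal in the Sgk1 change was not tested. In oil the change over time did not pass (adjusted p = 0.087), while the 12 h arrays were lower than the 1 h arrays by a log2 difference of -0.47 (standard error 0.17, adjusted p = 0.034), which without scaling turned to 0.24 (adjusted p = 0.25). This oil 12 h call was lost without oil 1 h replicate 1 or 3 or oil 12 h replicate 1 or 2 (adjusted p from 0.056 to 0.15).

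Tsc22d3, or GILZ, is a glucocorticoid-induced leucine zipper protein that restrains inflammatory signalling. Its second probe set read 311, 307 and 314 in oil at 1 h, 243, 313 and 352 at 3 h, 295, 292 and 269 at 6 h, 208, 231 and 191 at 12 h and 276, 261 and 287 at 24 h. In the EB groups it read 309, 341 and 301 at 1 h, 232, 293 and 198 at 3 h, 229, 223 and 207 at 6 h, 203, 240 and 224 at 12 h and 242, 255 and 260 at 24 h. The 1 h arrays of EB lay above all 12 later ones, and the low point in oil was 12 h, where all 3 arrays lay below the other 12.

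Against 1 h this probe set fell in EB at 6 h by 0.53 (standard error 0.12, adjusted p = 0.0074). At 12 h the difference was -0.57 in oil (adjusted p = 0.00055) and -0.51 in EB (adjusted p = 0.0034), and on the unscaled intensities both turned to 0.15 and 0.16 without passing (adjusted p = 0.46 and 0.44). Over time in EB the adjusted p was 0.0072, and 0.052 without EB 1 h replicate 2. At 6 h the EB difference stayed negative unscaled (-0.48) but had an adjusted p of 0.30. The first probe set read 498, 524 and 465 in oil at 1 h and 414, 463 and 378 at 12 h, a log2 difference of -0.25 (standard error 0.08, adjusted p = 0.025) that turned to 0.47 unscaled (adjusted p = 0.0073). This call was lost without any of 4 single arrays (adjusted p from 0.062 to 0.16). The first and the second correlated with r = 0.61 over 30 arrays. The third, from 37.6 to 77.0, passed over time in neither treatment, and the fourth, from 7.76 to 23.1, was not tested.

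Ddit4, or REDD1, an inhibitor of mTORC1 that glucocorticoids and low oxygen both induce, changed over time in both treatments (adjusted p = 0.020 in oil and 0.042 in EB). In oil it read 330, 393 and 368 at 1 h, 448, 492 and 402 at 3 h, 493, 531 and 371 at 6 h, 431, 502 and 466 at 12 h and 364, 364 and 377 at 24 h. After EB the values were 343, 394 and 331 at 1 h, 418, 452 and 466 at 3 h, 449, 445 and 367 at 6 h, 463, 447 and 561 at 12 h and 398, 414 and 469 at 24 h. The 1 h arrays lay below the 3 h and 12 h arrays of their treatment without overlap, and in oil the 24 h arrays were back at 364 to 377. At 12 h the difference from 1 h was 0.36 in oil (standard error 0.12, adjusted p = 0.019) and 0.46 in EB (adjusted p = 0.0074), and in oil it was 0.34 at 6 h (adjusted p = 0.044; 0.24 and 0.44 without scaling). Single arrays decided several of these calls. Without oil 1 h replicate 1 the adjusted p in oil was 0.056 over time, 0.097 at 12 h and 0.17 at 6 h. It was 0.058 at 12 h in EB without EB 12 h replicate 3, and 0.15 over time in EB without EB 1 h replicate 3. With quantile normalization it was 0.13 over time in EB, and in oil 0.13 at 12 h and 0.055 at 6 h. Of 9 other settings, 7 ended the oil 6 h call, 4 the call over time in EB and 1 the oil 12 h call. The call over time in oil and the EB 12 h call were ended by 0 of these settings. Of 30 omissions of 1 array, 1 ended the call over time in oil and 8 that in EB.

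Cdkn1a, the p21 inhibitor of cyclin-dependent kinases, which p53 and glucocorticoids both induce, fell at 6 h in both treatments and rose at 12 h in oil in its first probe set. In oil this read 464, 399 and 498 at 1 h, 442, 344 and 401 at 3 h, 373, 364 and 298 at 6 h, 556, 603 and 564 at 12 h and 452, 423 and 449 at 24 h. After EB it read 518, 535 and 496 at 1 h, 471, 410 and 574 at 3 h, 370, 353 and 357 at 6 h, 513, 637 and 428 at 12 h and 319, 429 and 426 at 24 h. In oil the 12 h arrays lay above and the 6 h arrays, but for overlap with 344 at 3 h, below all others. The change over time passed in oil (adjusted p = 0.0011) and in EB (adjusted p = 0.0058), and in EB the 6 h arrays were lower than at 1 h (log2 difference -0.52, standard error 0.13, adjusted p = 0.017; -0.48 and 0.22 without scaling).

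At 12 h the EB arrays overlapped those of 1 h, with a difference of 0.01 (adjusted p = 0.98; -0.06 with quantile normalization). The same probe set stood at -0.40 at 6 h and 0.35 at 12 h against 1 h in oil (adjusted p = 0.039 and 0.045) and at -0.41 at 24 h in EB (adjusted p = 0.042). All 3 were near the threshold and were lost without single arrays, to an adjusted p of 0.19 without oil 6 h replicate 3, 0.20 without oil 1 h replicate 2 and, for EB, 0.26 once replicate 1 of 24 h was omitted. The second probe set read 150, 202 and 210 at 1 h and 281, 334 and 281 at 12 h in oil, and 198, 213 and 203 at 1 h and 247, 332 and 280 at 12 h in EB. It rose at 12 h by 0.68 in oil (standard error 0.16, adjusted p = 0.0018) and by 0.47 in EB (adjusted p = 0.042, and 0.18 without EB 12 h replicate 2), with no overlap between the 12 h and 1 h arrays. It did not show the 6 h dip, at 201, 254 and 177 in oil and 193, 206 and 238 in EB.

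**Figure D2:**
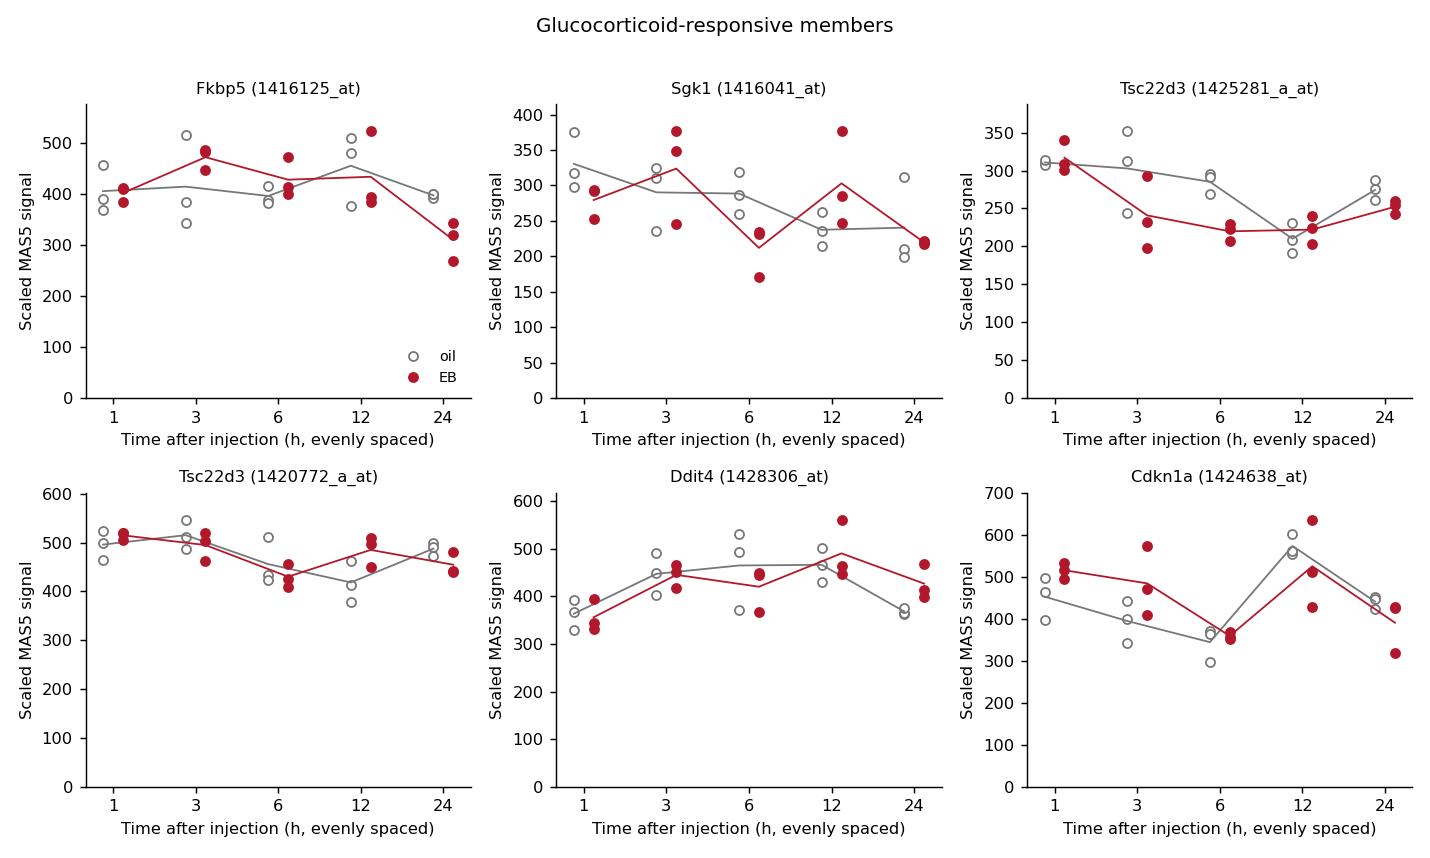
Scaled MAS5 signal (y axis, from 0) of Fkbp5, Sgk1, Tsc22d3 (the second, then the first probe set), Ddit4 and Cdkn1a against time after injection (x axis, h, evenly spaced), with open circles for oil arrays, filled circles for EB arrays and lines through the means of 3. The 3 EB arrays of Fkbp5 at 24 h (269 to 343) are the lowest of its 30, and the group means of Cdkn1a are lowest at 6 h in both treatments, while its 12 h arrays lie above those of 1 h in oil and overlap them in EB.

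Mt1 and Mt2 encode the metallothioneins, small zinc-binding proteins whose neighbouring genes are induced by metal and by glucocorticoid. The first Mt1 probe set read 1028, 1012 and 875 in oil at 1 h, 1176, 1229 and 1024 at 3 h, 1399, 1124 and 1439 at 6 h, 865, 1175 and 927 at 12 h and 1048, 970 and 1021 at 24 h. EB arrays read 1056, 921 and 1051 at 1 h, 1181, 1763 and 1609 at 3 h, 1688, 890 and 1045 at 6 h, 1422, 990 and 2269 at 12 h and 933, 894 and 913 at 24 h. Its change over time passed in EB (adjusted p = 0.022) and not in oil (adjusted p = 0.28), and the EB call was lost without EB 24 h replicate 2 (adjusted p = 0.051), with quantile normalization (0.060) or without the EB 24 h arrays (0.11). No single time passed against 1 h, the nearest in EB being 0.57 at 3 h (standard error 0.20, adjusted p = 0.25) and 0.55 at 12 h (adjusted p = 0.062).

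Mt2 varied with Mt1 from mouse to mouse. It read 989, 1299 and 1076 in oil at 1 h, 939, 1216 and 1030 at 3 h, 1546, 1160 and 1479 at 6 h, 804, 1152 and 746 at 12 h and 873, 740 and 1011 at 24 h. EB arrays read 1038, 944 and 1226 at 1 h, 983, 1696 and 1435 at 3 h, 1820, 1110 and 1176 at 6 h, 1290, 910 and 2184 at 12 h and 1041, 996 and 964 at 24 h. Replicate 3 of EB 12 h was the highest of the 30 arrays for both genes, and replicate 1 of EB 6 h and replicates 2 and 3 of EB 3 h stood above the other arrays of their groups for both. The log2 signals of the pair correlated with r = 0.86 over 30 arrays and r = 0.91 with group means removed, so the likeness is present within groups. Both values of a point come from one array, and the Mt1 probe set is of a kind whose probes can be shared with related transcripts. The leptomeningeal list correlated with Mt1 at r = 0.44 over 30 arrays and with Mt2 at 0.27. Over the 27 arrays without EB 24 h these were 0.51 and 0.40. The part of the leptomeningeal signal in this spread was not tested. The second Mt1 probe set read 3.69 to 32.6 and was not tested.

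**Figure D3:**
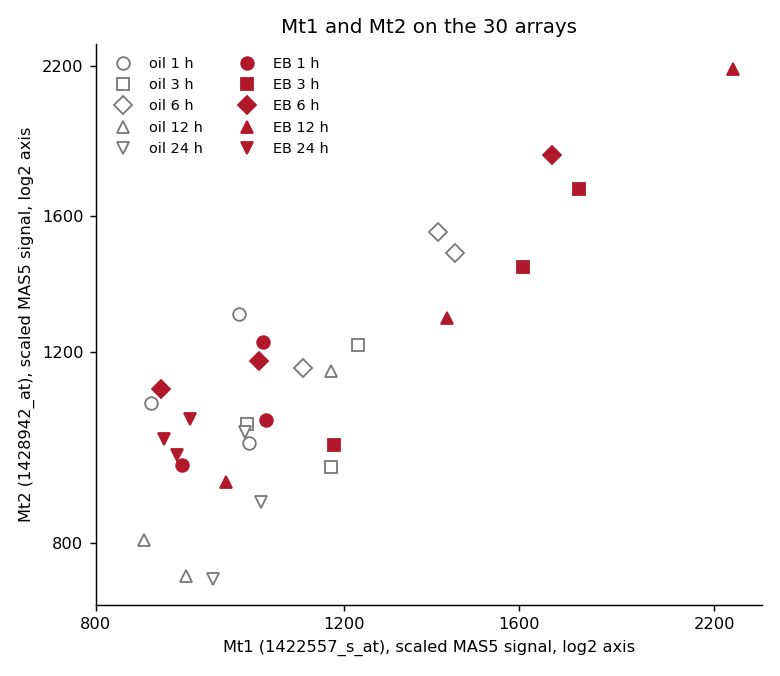
Mt2 (y axis) against Mt1 (x axis), scaled MAS5 signal on log2 axes, for each of the 30 arrays, with open symbols for oil, filled symbols for EB and 1 shape for each time. The values rise together (r = 0.86), and EB 12 h replicate 3, at 2269 and 2184, is at its upper end.

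The timing of the calls was uneven. The contrasts of a treatment with 1 h share its 1 h arrays and are read side by side. In oil, 0 member probe sets passed at 3 h (1 with an unadjusted p under 0.05; 0% of all probe sets called, and 10.6% unadjusted), 4 at 6 h beside 15.4% of all, 9 at 12 h beside 30.6% and 1 at 24 h beside 6.77%. In EB, 0 passed at 3 h (6 with an unadjusted p under 0.05) beside 0.137% of all (11.3% unadjusted), 2 at 6 h beside 6.31%, 5 at 12 h beside 16.2% and 2 at 24 h beside 10.2%. The methods' test on the deposited intensities, adjusted over all probe sets, called 0 members at 3 h in either treatment and 12 in oil and 14 in EB at 12 h, where, on intensities not brought to one median, it also called 23410 and 22652 of all 27022. At 12 h in oil the members' median difference was 0.34 against 0.09 for all probe sets, and in EB 0.41 against 0.05.

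EB and oil were then compared at each time, which asks whether the estrogen changed these genes. No member passed at any time. At 1 h 0 of 16 passed by limma (0 with an unadjusted p under 0.05, 0 by the methods' test), beside 0.0037% of all probe sets (8.63% unadjusted). At 3 h 0 passed (6 with an unadjusted p under 0.05, 0 by the methods' test), beside 0.474% (12.8% unadjusted). At 6 h and at 12 h 0 passed (3 unadjusted at each, 0 by the methods' test), where limma called 0% of all probe sets (6.02% and 6.57% unadjusted). At 24 h 0 passed (3 unadjusted, 0 by the methods' test), beside 2.77% (15.7% unadjusted). Averaged over the 5 times 0 passed (2 unadjusted, 0 by the methods' test), beside 0.074% (8.69% unadjusted). The test of whether the difference varied with time gave 0 of 16 (7 unadjusted, 0 by the methods' test), with the lowest adjusted p at 0.21, beside 0.951% of all (16% unadjusted). The methods' test was adjusted here over all probe sets and called 0 of them at 6 h and 518 at 12 h. Before adjustment it put 0, 3, 0, 4 and 4 members under 0.05 at 1, 3, 6, 12 and 24 h. The paper instead followed its two-way ANOVA of single genes with a Bonferroni test.

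Nr3c2 at 3 h came nearest. The 3 EB arrays, 40.7, 36.6 and 41.5, lay above the 3 oil arrays, 19.4, 31.6 and 17.7, a difference of 0.84 (standard error 0.24, 95% interval 0.34 to 1.33, adjusted p = 0.12). At 24 h the difference was -0.45 (interval -0.95 to 0.04), with EB replicate 3 alone at 15.3. The first probe set of Fkbp5 at 24 h was lower in EB without overlap, 343, 319 and 269 against 393, 400 and 401, a difference of -0.37 (standard error 0.13, interval -0.63 to -0.10, adjusted p = 0.14). These EB arrays are those with the low leptomeningeal signal, and its part in the difference was not tested. The second was lower in EB at 3 h by a difference of -0.82 (adjusted p = 0.16), which passed without scaling (-1.06, adjusted p = 0.048).

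Mt1 and Mt2 at 12 h stood at 0.59 and 0.63 (adjusted p = 0.66 and 0.68), with EB and oil arrays overlapping for both. Without single arrays the Mt1 difference ranged from 0.28 to 0.87. For Nr3c1 the 3 probe sets gave different values of EB minus oil. The first had intervals of -0.10 to 0.37 at 3 h and -0.19 to 0.28 at 24 h. The second stood at 0.25 at 3 h (interval 0.03 to 0.47, adjusted p = 0.32) and -0.24 at 6 h (-0.47 to -0.02, adjusted p = 0.79). The third stood at 0.51 at 24 h (0.07 to 0.95, adjusted p = 0.23). For Hsd11b1 the interval at 24 h was -0.64 to 0.68. The tests rest on the spread that limma pools over the 10 groups, since exact permutation of 3 against 3 has 0.1 as its smallest p.

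**Figure D4:**
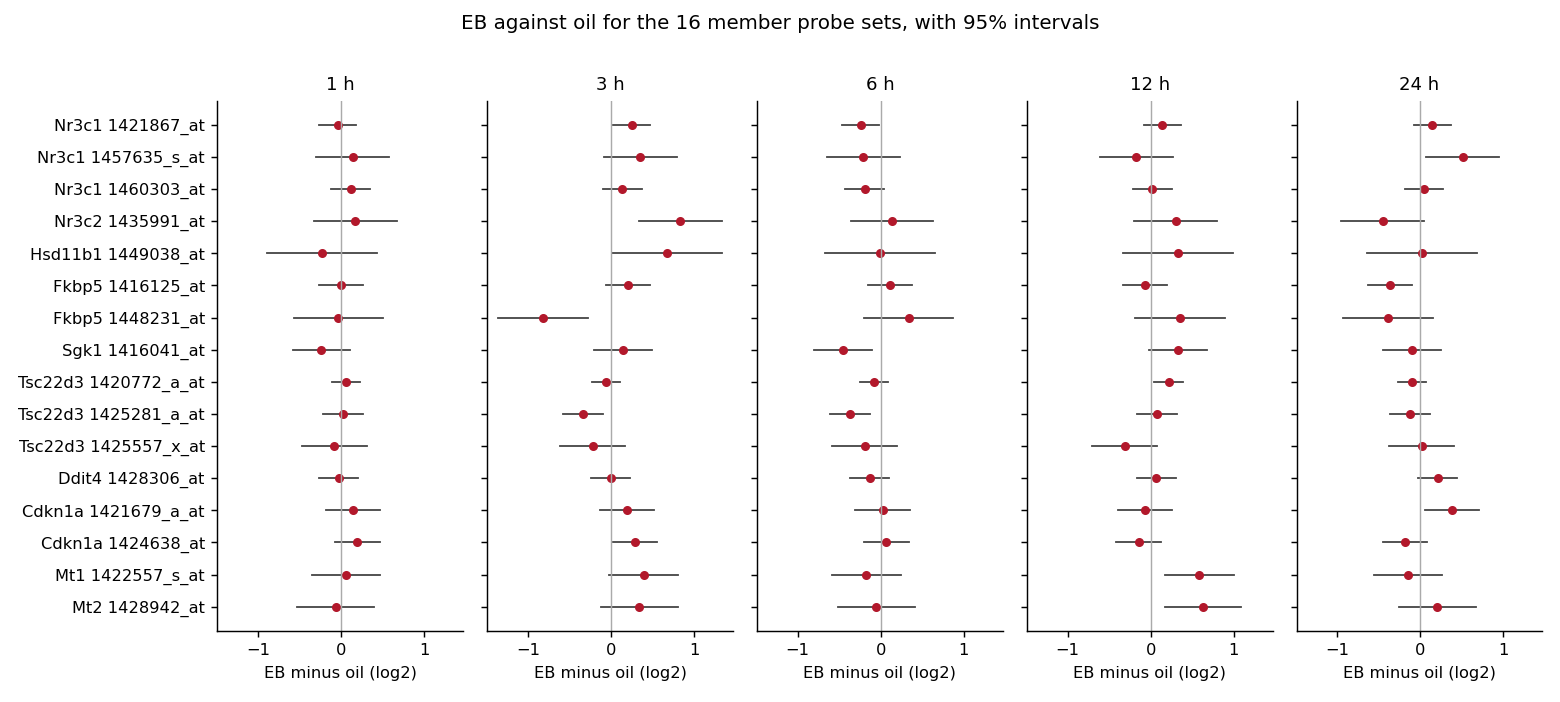
Difference EB minus oil (x axis, log2 scaled signal) with its 95% interval for each of the 16 member probe sets (y axis) at the 5 times (panels), points for the estimates and bars for the intervals of 3 against 3 arrays. The estimate of Nr3c2 at 3 h is 0.84 and that of the first Fkbp5 probe set at 24 h is -0.37, and no estimate passed after adjustment.

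Further genes of the same system were counted from fixed lists, each gene by its brightest probe set. Of 11 chaperones and co-chaperones of the receptor tested, 5 changed over time in oil and 3 in EB, beside the 34.1% and 22.8% of all probe sets given above. Hsp90aa1, the inducible Hsp90 that holds the receptor ready for hormone, changed in both (adjusted p = 0.0067 and 0.0015). Hspa8, the constitutive Hsp70, was lower in EB than in oil at 24 h, by a difference of -0.40 (standard error 0.11, adjusted p = 0.048), and Cdc37 fell in EB at 24 h by 0.44 (adjusted p = 0.0046). Of 7 genes of steroid access and metabolism only Abcb1a, an efflux pump, passed the filter. It fell in EB at 24 h by 0.88 (standard error 0.23, adjusted p = 0.014). The 7 endothelial markers kept summed to 603.1 to 700.9 in the EB 24 h arrays and 741.6 to 878.1 in the EB 1 h arrays, without overlap, and the leptomeningeal markers were low in the same EB 24 h arrays. The part of either in the fall of Abcb1a was not tested.

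Of 27 further glucocorticoid-responsive genes tested, 11 changed over time in oil and 17 in EB, beside the same shares of all. At 24 h against 1 h in EB, 13 were lower and 1 higher with a median of -0.39 against 0.02 for all probe sets, of which 5.51% were called lower. These are the EB 24 h arrays with the low leptomeningeal signal (398.6 to 1951 against 3051 to 9259), whose part in this count was not tested. In oil at 24 h, 5 were lower and 0 higher with a median of -0.14 against 0.05, with 1.8% of all called lower. In oil at 12 h, 6 were lower and 5 higher, with 12% of all called lower. Cdkn1c, the p57 inhibitor of cyclin-dependent kinases, fell at 24 h in EB by 1.15 (standard error 0.17, adjusted p = 0.00013) and in oil by 0.73 (adjusted p = 0.011). Cebpd and Klf9 are named as genes that ran most like Sgk1. Cebpd, a transcription factor of the acute-phase response, fell by 1.09 in EB (adjusted p = 0.013) and 0.94 in oil (adjusted p = 0.042). Klf9, a receptor-induced transcription factor, fell in EB by 0.72 (adjusted p = 0.018) and stood at -0.61 in oil (adjusted p = 0.057). Sult1a1, a sulfotransferase, fell in EB by 3.08 (standard error 0.49, adjusted p = 0.00021), and Anxa1, the anti-inflammatory annexin, by 1.47 (adjusted p = 0.0032).

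Only Sult1a1 and Anxa1 of these 27 passed between EB and oil at 24 h, with differences of -2.54 (adjusted p = 0.0032) and -1.45 (adjusted p = 0.0093). The mean centred log2 level of the leptomeningeal markers in those same EB 24 h arrays was -2.76, against 0.04 in oil at 24 h, and their part in the Sult1a1 and Anxa1 values was not tested. Rgcc, a cell-cycle regulator, was the 1 gene that rose at 24 h in EB, by 0.56 (adjusted p = 0.024), and it rose by 1.09 at 12 h in oil (adjusted p = 1.3e-05).

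**Figure D5:**
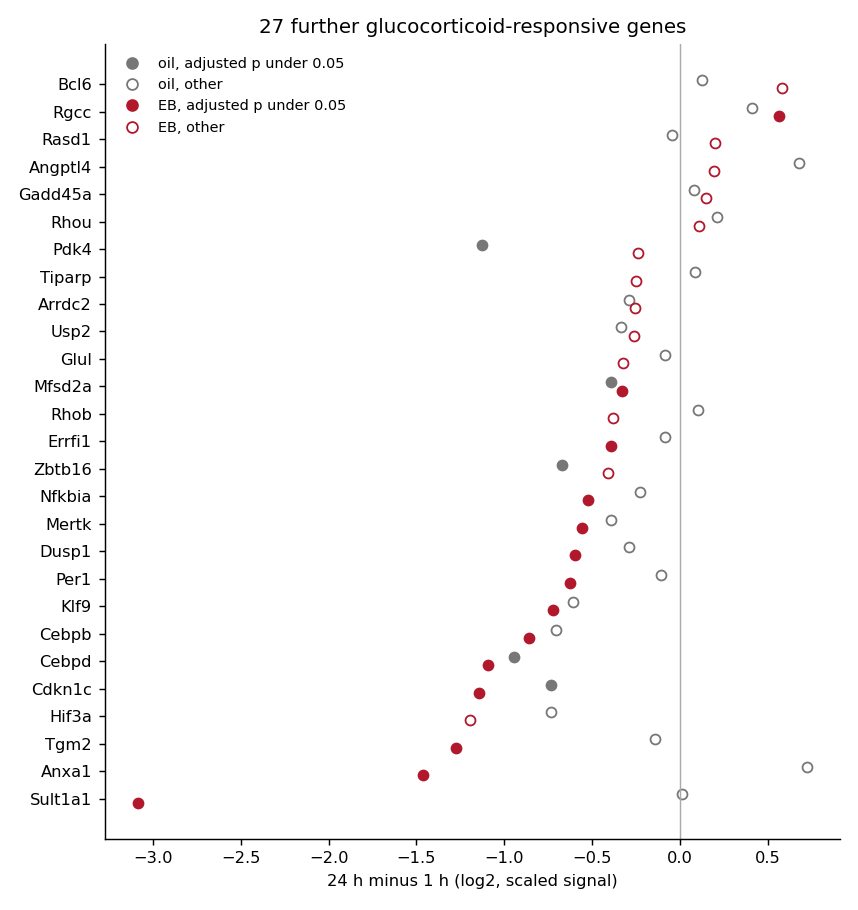
Difference 24 h minus 1 h (x axis, log2 scaled signal) of 27 further glucocorticoid-responsive genes (y axis, ordered by the EB value), grey for oil and red for EB, filled where the adjusted p was under 0.05. In EB 13 genes are filled below 0 and Rgcc is filled above it, and in oil 5 are filled below 0.

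Among 7 genes of the stress axis tested, 2 changed over time in oil and 0 in EB (limma; 1, Pomc, at an unadjusted p under 0.05), again beside 34.1% and 22.8% of all probe sets, as for the 3 lists after it. Crhr1, a receptor for corticotropin-releasing hormone, rose at 12 h in oil by 0.79 (standard error 0.20, adjusted p = 0.0042), and Crh itself passed over time in oil (adjusted p = 0.043) with means of 103 (1 h), 60.7 (6 h) and 141 (12 h). Of 9 genes of zinc and metal handling, 1 changed in each treatment, the same gene, Mt3, the neuronal and astrocytic metallothionein. It rose at 12 h by 1.13 in oil (standard error 0.18, adjusted p = 2.1e-05) and 1.15 in EB (adjusted p = 6.2e-05) and was back at 0.07 and -0.11 at 24 h, a course that neither Mt1 nor Mt2 had in oil, at 0.02 and -0.33 at 12 h. Of 10 p53 targets 5 changed in oil and 1 in EB, among them Ccng1, which rose at 12 h in oil by 0.58 (adjusted p = 0.00052). At 12 h in oil 3 of the 10 were called higher and 2 lower, with a median of 0.14 against 0.09 for all probe sets. Of 14 hypoxia-responsive genes 4 changed in oil and 6 in EB. Vegfa, the endothelial growth factor, fell by 24 h in EB by 1.31 (adjusted p = 7.2e-05), and Slc2a1, the glucose transporter of the blood-brain barrier, by 1.04 (adjusted p = 0.00069), in the arrays with the low leptomeningeal and endothelial sums, while Ndrg1 rose at 12 h by 0.57 in oil (adjusted p = 0.0014) and 0.44 in EB (adjusted p = 0.019).

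Genes whose log2 signal ran most alike over the 30 arrays were named by Pearson correlation, which here also reflects shared libraries and shared time courses. Those most like Sgk1 were Slc2a1 (0.79), Klf9 (0.76) and Cebpd (0.75), of which Slc2a1 is on the hypoxia list and the other two are on the list of further responsive genes. Those most like Nr3c1 were Tmem109 (0.86), Tmem107 (0.86) and Ramp1 (0.84), and that most like Nr3c2 was Foxd2 (0.76). Cdkn1a was most like Cend1 (0.83), Mt1 like Deptor (0.77) and Cst3 (0.75), and Mt2 like Csrp1 (0.75), other than each other. The list of astrocyte and radial glia markers stood highest at 12 h (mean centred level 0.20 in oil and 0.36 in EB, against -0.25 and 0.02 at 1 h). Highest at 12 h in both treatments were also the hypothalamus (0.16 and 0.25), endothelial (0.19 and 0.26) and oligodendrocyte (0.19 and 0.18) lists. The leptomeningeal, choroid plexus, microglia and pan-neuronal lists were not. These ranks, and the correlations that follow, use the centred level. The summed signal of the astrocyte list did not peak at 12 h. In oil it was 13670 to 14050 at 12 h and 14970 to 15560 at 24 h. In EB it was 13550 to 15560 at 12 h and 15430 to 15590 at 1 h. Over 30 arrays the astrocyte list correlated with the first probe set of Cdkn1a at r = 0.57, with that of Nr3c1 at 0.51 and with the second of Tsc22d3 at -0.56. The first Nr3c1 probe set also correlated with the microglia (0.47) and endothelial (0.41) lists, and with the leptomeningeal list at -0.04. The part of any list in the 12 h changes was not tested.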

How the data were processed

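The values deposited by the authors are linear MAS5 intensity, 1 column a mouse; the scaling target and detection calls behind them are not stated in the sources read. The authors' fold selection in GeneSpring was not used. All 30 columns were mapped by title (0 unmapped). Gene symbols came from the platform annotation, and probe sets with several symbols were tested but not named. Members and lists were chosen with earlier results of these data known. All arrays were multiplied to one median, the mean over arrays (41.3), signals under 1 were set to 1, log2 was taken, and the lowest 40% of 45037 probe sets by mean log2 signal was left out (mean under 21.9). limma 3.58.1 (R 4.3.3; 10 group means, eBayes with trend) was fitted to all arrays, with Benjamini-Hochberg adjustment over 27022 probe sets. The methods' test, treatment and time as factors on deposited intensity, was run as an alternative. Its p-values were adjusted by Benjamini-Hochberg over all probe sets, in place of the paper's Bonferroni test. Per-array values were given for members that passed a test and for the receptors; from each list, genes with the smallest F p or passing between treatments were named. No arrays were identical (0 pairs). Actin 3′ to 5′ signal ratios ran from 1.27 to 1.44. In simulated data 200 of 27022 probe sets were changed in 1 group only, oil 12 h or EB 24 h. The oil time test then recovered 8% of 1.25-fold, 60% of 1.5-fold and 90% of 2-fold changes, and EB against oil at 24 h recovered 2%, 48% and 84%. The adjustment depends on the share of probe sets changed, and 34.1% were called over time in oil. The rates therefore describe the simulated setting only. The number of arrays limits the precision.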

Additional observations from a re-analysis of the deposited data

How the results depend on the processing

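Alternatives covered scaling, quantile normalization, a floor of 16, the filter, array weights, a replicate block, only the arrays compared, the methods' test and omission of single arrays. The count of members changed over time with EB, 8, was 16 without scaling, 16 by the methods' test and 5 without the EB 24 h arrays, the last chosen after seeing the data; the 5 were of Nr3c1 (2), Cdkn1a, Tsc22d3 and Ddit4, beside 14.3% of all. The count with oil, 10, was 2 without the 12 h arrays, also chosen after seeing the data. EB against oil at 3 h gave 1 without scaling, the second probe set of Fkbp5. Leaving out each array gave 6 to 10 with oil (6 without oil 12 h replicate 3), 6 to 10 with EB, 17 to 27 calls against 1 h (23 with all arrays), and 0 to 0 for EB against oil at each time, on average and for treatment by time. Without scaling and by the methods' test (in signal units), the differences from 1 h at 12 h reversed in oil for Sgk1 (0.24 and 57.8), the first probe set of Tsc22d3 (0.47 and 184) and the second of Tsc22d3 (0.15 and 32.4), and in EB for the last (0.16 and 33.4); intensities at 12 h were higher for the median probe set, as given above. Replicate numbers do not pair the mice (median r of deviations 0.00026 over 135 pairs); the replicate block gave 9 with oil, 8 with EB, 21 against 1 h and 0 elsewhere. Of 1800 tests of named probe sets with 1 array left out, 1699 kept their side of the threshold, 86 lost and 15 gained it, and 0 reversed. Of 540 under other settings 448 kept it, 50 lost it, 34 gained it and 8 reversed. Dim members (Nr3c2, Hsd11b1, the second probe set of Fkbp5) lie close to the filter and have standard errors of 0.24, 0.32 and 0.26. Differences well beyond these did not pass. They were 0.84 for Nr3c2 and -0.82 for Fkbp5 (EB minus oil at 3 h), and 0.92 for Hsd11b1 (EB, 12 h minus 1 h).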
